A study of Homo sapiens with 6 samples.

Results

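CTCF and the genes of the cohesin complex were examined in Rh30 cells with and without knockdown of DDX5, a DEAD-box RNA helicase that has been described as a partner of the CTCF protein. The set held 10 genes chosen by name, of 35580 genes with a transcript in the tables: CTCF, the ring genes SMC1A, SMC3, RAD21, STAG1 and STAG2, the loader NIPBL, and the release and regulatory genes WAPL, PDS5A and PDS5B. No rule on measured values was used to choose them, but earlier results of these data were known when they were chosen. Transcripts were assigned to genes with the GENCODE annotation, and the estimated counts and transcript abundances in TPM, a unit that divides by transcript length and fixes the total of each library, of all transcripts of a gene were summed.

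Rh30 is an alveolar rhabdomyosarcoma line, and all 6 libraries came from it, so controls and knockdown cells alike carry the PAX3-FOXO1 fusion. Of these libraries, 3 were labelled control and 3 siDDX5, and the titles number the replicates of each group 1 to 3. How the control cells were treated, the time after knockdown and whether replicates were separate cultures are not given in the sources used here, so p-values measure the spread between these libraries only. Messenger RNA was sequenced with a stranded kit.

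Cohesin is a ring of SMC1A, SMC3 and RAD21 to which either STAG1 or STAG2 binds. NIPBL loads the ring onto DNA and drives the extrusion of chromatin loops, while WAPL, together with PDS5A or PDS5B, opens the ring and releases it. CTCF is a zinc finger protein that binds DNA and halts the extruding ring, so that loop ends and domain borders lie at its sites. The ring also holds sister chromatids together in dividing cells, and STAG2 is a gene that is recurrently mutated in several cancers.

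DDX5 itself was measured at 1352, 1434 and 1137 CPM, counts scaled to a common library total with TMM factors, in control replicates 1, 2 and 3 and at 549, 504 and 396 CPM in siDDX5 replicates 1, 2 and 3. The groups did not overlap, and the log2 fold change was -1.44 (SE 0.15, edgeR quasi-likelihood test, adjusted p = 0.0106). That call was lost without control replicate 1, siDDX5 replicate 1 or siDDX5 replicate 2, and in the fits based on TPM, with an adjusted p of up to 0.0955 over all alternatives. The libraries held between 18202402 and 26156858 estimated counts, and the siDDX5 group held the 3 shallowest. Of the rhabdomyosarcoma markers, MYOD1, MYOG, DES, FGFR4, CHRNA1 and CHRND were at 61.1 CPM or more in every library, MYL4 was at 6.99 to 15.4 CPM and TNNC2 at most at 0.79 CPM. Of 11 markers of epithelial, blood, endothelial and fibroblast cells, PECAM1 was at 10.3 to 14.9 CPM and the others at most at 2.65 CPM, with KRT19 at 0 in all libraries.

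CTCF and SMC1A had lower values and STAG1 higher values in the siDDX5 libraries, with no overlap between the groups, and the other 7 genes had overlapping groups. None of the 10 genes passed an adjusted p of 0.05 in edgeR's quasi-likelihood test over 15223 genes, where 0.164% of all genes did. At an unadjusted p under 0.05 there were 3 of the 10, against 11.4% of all genes, and the groups did not overlap in CPM for 3 of the 10, against 18% of all genes. With the replicate number as a block, 1 of the 10 passed, CTCF, against 2.59% of all genes, and DESeq2's Wald test also called CTCF alone. The median log2 fold change was 0.02 over the 10 genes and -0.00 over all genes tested.

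**Figure D1:**
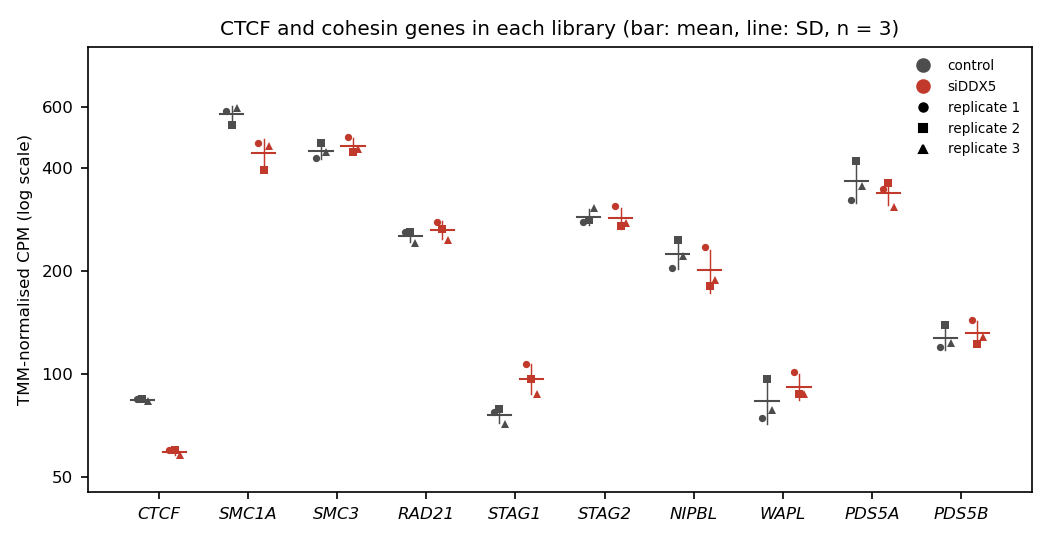
TMM-normalised CPM (log axis) of the 10 genes in each of the 6 libraries, with control in grey, siDDX5 in red, a horizontal bar for the mean and a vertical line for the SD of 3 libraries. The CTCF values lie within 83.2 to 84.3 CPM in control and 57.8 to 59.9 CPM in siDDX5 libraries, and groups are also apart for SMC1A and STAG1.

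CTCF (ENSG00000102974.15, GRCh38 chr16:67562407-67639185, plus strand) was at 84.3, 84.3 and 83.2 CPM in control replicates 1, 2 and 3. It was at 59.7, 59.9 and 57.8 CPM in siDDX5 replicates 1, 2 and 3. Every siDDX5 library was thus below every control library, and the spread within a group was small beside the gap: control libraries averaged 83.9 ± 0.655 CPM (SD, n = 3) and siDDX5 libraries 59.1 ± 1.15 CPM (SD, n = 3). This is a log2 fold change of -0.50 (SE 0.09, 95% interval -0.71 to -0.30), a difference of -29.5%. Its unadjusted p of 0.000337 ranked 68 of 15223 genes, and the edgeR adjusted p was 0.0733. Blocking on the replicate number gave a log2 fold change of -0.50 (SE 0.08) and an edgeR adjusted p of 0.0144, and DESeq2 gave an adjusted p of 0.000948. The differences between same-numbered libraries were -0.50, -0.49 and -0.52 on the log2 scale. Over all 14 alternatives the log2 fold change stayed between -0.51 and -0.43, while the adjusted p ranged from 0.000948 to 0.399. In summed TPM CTCF was at 37.3, 38.9 and 39.6 in control and 30.2, 24.9 and 28.0 in siDDX5 libraries, without overlap. The spread within groups was wider on that scale than in CPM, with an SD of 1.19 TPM in control and 2.67 TPM in siDDX5 libraries. In bulk RNA, fewer cells with the transcript and less of it per cell cannot be told apart. The annotation places AC009095.1 and AC027682.4 on the opposite strand over CTCF, and whether reads were assigned by strand is not given in the sources used here.

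The pattern of CTCF over the 6 libraries was most closely matched by RCC2, DVL2 and NFATC1 among the 10993 genes whose mean was 5 CPM or more. The measure was the root mean square difference of log2 CPM after each gene was centred on its mean, and it was 0.0468 for RCC2, 0.0512 for DVL2 and 0.0521 for NFATC1. RCC2, a regulator of chromosome condensation, was at 269, 277 and 279 CPM in control and 183, 187 and 179 CPM in siDDX5 libraries. Of the cohesin genes, SMC1A ranked 223 on this measure and NIPBL 2091, while STAG1, with higher values in siDDX5 libraries, ranked 9791.

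The CTCF transcripts were divided by what they are annotated to encode. The 5 transcripts with the coding sequence of the leading transcript, of 2181 bases, summed to 71.4, 63.4 and 65.1 CPM in control and 45.1, 48.1 and 44.2 CPM in siDDX5 libraries. All summed siDDX5 values of this full-length class were below all control values. Within the class ENST00000642819.1, named here after its values were seen, had higher siDDX5 values, at 36.9, 33.4 and 17.4 estimated counts in control and 55.3, 46.8 and 86.7 in siDDX5 libraries, without overlap (log2 fold change 1.49, SE 0.42, edgeR unadjusted p = 0.0105, adjusted p = 0.591). The 6 transcripts without a coding sequence summed to 4.93, 7.77 and 6.96 CPM in control and 7.14, 9.08 and 10.1 CPM in siDDX5 libraries. The groups overlapped in CPM. These 6 transcripts held 5.85%, 9.22% and 8.37% of CTCF CPM in control and 11.97%, 15.14% and 17.44% in siDDX5 libraries, without overlap. The share of the full-length class was 84.69%, 75.19% and 78.24% in control and 75.55%, 80.21% and 76.52% in siDDX5 libraries, with overlap. These shares were not tested. The leading transcript, ENST00000644753.1, was at 1170, 1190 and 1072 estimated counts in control and 414, 638 and 446 in siDDX5 libraries, a log2 fold change of -0.82 (SE 0.22, edgeR unadjusted p = 0.00801, adjusted p = 0.548). ENST00000264010.10, which encodes the same protein from another first exon, varied from 32.9 to 498 estimated counts in control and from 134 to 368 in siDDX5 libraries, with overlap. ENST00000646771.1, whose coding sequence is 2175 bases, was at 169, 263 and 227 counts in control and at 82.8, 21.8 and 27.8 counts in siDDX5 libraries, without overlap (edgeR unadjusted p = 0.00589, adjusted p = 0.523). The retained-intron transcript ENST00000646566.1 had higher values in siDDX5 libraries, with 15.2, 14.1 and 10.9 counts in control against 25.7, 90.5 and 65.6 counts in siDDX5 libraries (edgeR unadjusted p = 0.00239, adjusted p = 0.38).

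**Figure D2:**
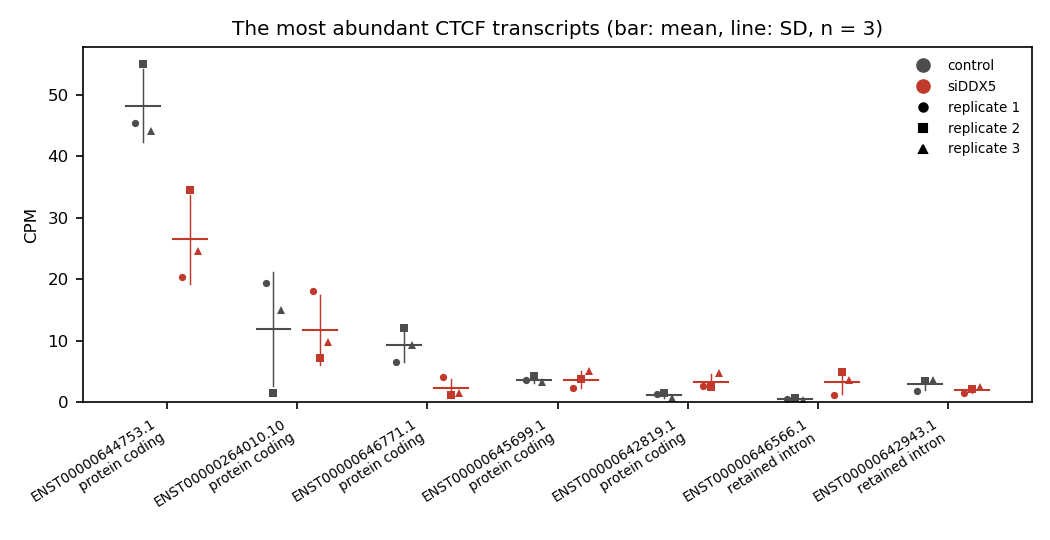
CPM of the 7 most abundant CTCF transcripts in each library, with the annotated type of each, a bar for the mean and a line for the SD of 3 libraries. The leading transcript is lower in every siDDX5 library, while ENST00000264010.10 has overlapping groups.

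SMC1A (ENSG00000072501.17, GRCh38 chrX:53374149-53422728, minus strand) encodes one of the ring's ATPases. It was at 585, 534 and 598 CPM in control and 472, 394 and 462 CPM in siDDX5 replicates 1, 2 and 3, so the groups did not overlap. The log2 fold change was -0.37 (SE 0.11, 95% interval -0.62 to -0.12, edgeR unadjusted p = 0.00829, adjusted p = 0.253), and the block gave an adjusted p of 0.067. In summed TPM the difference was wider, with 153, 149 and 173 TPM in control against 122, 78.6 and 103 TPM in siDDX5 libraries, and limma-trend on log2(TPM + 0.1) gave -0.66 (adjusted p = 0.376). Short annotated transcripts weigh more in summed TPM than in counts. The leading transcript ENST00000322213.8, of 9784 bases, held 88.8% of the counts but 55.4% of the TPM on average. Its own values were 13380, 10119 and 12604 estimated counts in control and 8493, 6433 and 7739 in siDDX5 libraries (log2 fold change -0.30, SE 0.11, edgeR unadjusted p = 0.0327, adjusted p = 0.678). The nonsense-mediated decay transcript ENST00000463684.1, of 880 bases, was at 264, 305 and 312 counts in control and at 113, 96.2 and 62.2 counts in siDDX5 libraries (log2 fold change -1.35, SE 0.25, edgeR unadjusted p = 0.00127, adjusted p = 0.31). That transcript skips 2 neighbouring coding exons of 113 and 189 bases, which the transcripts that span the site included at 81.7%, 74.6% and 79.2% of their TPM in control and 87.7%, 82.5% and 91.3% in siDDX5 libraries. The exact two-sided permutation test gave p = 0.1 (adjusted p = 0.471). ENST00000463684.1 alone skips these exons, so their share is not a separate result. In counts, the transcripts with the exons were at 14643, 11138 and 14064 in control and 9395, 7101 and 8289 in siDDX5 libraries. RIBC1 lies over SMC1A on the opposite strand.

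SMC3 and RAD21, the other core members of the ring, had overlapping groups. SMC3, the second ATPase, was at 426, 472 and 445 CPM in control and 490, 444 and 453 CPM in siDDX5 libraries (log2 fold change 0.05, 95% interval -0.18 to 0.27, edgeR adjusted p = 0.898). RAD21, the kleisin that closes the ring and is cut by separase in mitosis, was at 259, 260 and 241 CPM in control and 278, 264 and 246 CPM in siDDX5 libraries (log2 fold change 0.05, 95% interval -0.17 to 0.28, edgeR adjusted p = 0.877). With limma-trend on TPM both estimates had the opposite sign, and with length-scaled TPM that of RAD21 did. Almost all SMC3 counts fell on a single transcript, ENST00000361804.4, which held 99.2% to 100% of the TPM, and ENST00000297338.6 held 80.7% to 88.9% of the RAD21 TPM. The RAD21 transcript with the smallest usage p, ENST00000518055.1, was at 16.8, 15.2 and 24.6 counts in control and 0, 0 and 5.91 counts in siDDX5 libraries (edgeR unadjusted p = 0.0477, adjusted p = 0.701). UTP23 lies over RAD21 on the opposite strand.

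STAG1 (ENSG00000118007.12, GRCh38 chr3:136336233-136752403, minus strand) was at 77.0, 79.1 and 71.5 CPM in control and 107, 96.6 and 87.1 CPM in siDDX5 replicates 1, 2 and 3. All siDDX5 libraries were above all control libraries. The log2 fold change was 0.35 (SE 0.11, 95% interval 0.10 to 0.60, edgeR unadjusted p = 0.0104, adjusted p = 0.275), and the adjusted p with the replicate block was 0.0664. On the TPM scale the groups overlapped, at 28.0, 30.9 and 25.1 TPM in control and 39.2, 30.3 and 30.0 TPM in siDDX5 libraries, and limma-trend on log2(TPM + 1) gave 0.23 (adjusted p = 0.699). The leading transcript, ENST00000383202.7, was at 1523, 1457 and 1453 estimated counts in the deeper control libraries and 1609, 1556 and 1370 in siDDX5 libraries (log2 fold change 0.40, SE 0.10, edgeR unadjusted p = 0.00692, adjusted p = 0.537). PCCB lies over STAG1 on the opposite strand. STAG2, the paralog that competes with STAG1 for the ring, had overlapping groups, at 277, 280 and 306 CPM in control and 309, 270 and 275 CPM in siDDX5 libraries (log2 fold change -0.01, 95% interval -0.25 to 0.22, edgeR adjusted p = 0.976).

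The regulators of the ring also had overlapping groups. NIPBL was at 203, 246 and 220 CPM in control and 234, 181 and 188 CPM in siDDX5 libraries (log2 fold change -0.15, 95% interval -0.44 to 0.14, edgeR adjusted p = 0.703). WAPL was at 74.2, 96.8 and 78.4 CPM in control and 101, 87.0 and 87.4 CPM in siDDX5 libraries (log2 fold change 0.14, 95% interval -0.14 to 0.43, edgeR adjusted p = 0.72). PDS5A was at 322, 417 and 354 CPM in control and 347, 359 and 307 CPM in siDDX5 libraries (log2 fold change -0.11, 95% interval -0.39 to 0.17, edgeR adjusted p = 0.787). The last of them, PDS5B, was at 120, 138 and 123 CPM in control and 144, 122 and 128 CPM in siDDX5 libraries (log2 fold change 0.05, 95% interval -0.20 to 0.29, edgeR adjusted p = 0.905). For 6 of the genes, SMC3, STAG2, NIPBL, WAPL, PDS5A and PDS5B, the difference between the libraries numbered 1 was positive and that between the libraries numbered 2 negative. NIPBL had a retained-intron transcript, ENST00000514335.1, at 126, 178 and 85.0 counts in control and 187, 260 and 193 counts in siDDX5 libraries, without overlap (edgeR unadjusted p = 0.0184, adjusted p = 0.635).

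**Figure D3:**
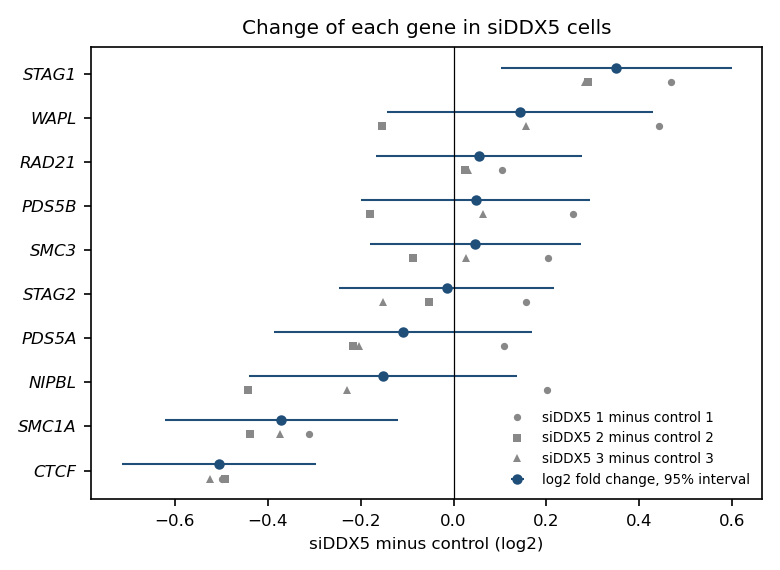
Difference of siDDX5 minus control (log2) for each gene, with the edgeR estimate and its 95% interval in blue and the differences between same-numbered libraries in grey. The intervals of CTCF, SMC1A and STAG1 do not reach 0, and all 3 same-numbered differences of these genes lie on one side of it.

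Of the other transcripts with at least 10% of a gene's TPM in either group, ENST00000371145.7 of STAG2 had an unadjusted p under 0.05 and is described with its exon, and the rest did not. Some transcripts were spread widely within a group. STAG2's ENST00000371144.7 was at 444, 460 and 372 counts in control but at 511, 0 and 0.563 counts in siDDX5 replicates 1, 2 and 3. SMC1A's short ENST00000428014.1 was likewise at 214, 19.9 and 142 counts in siDDX5 libraries, against 280, 205 and 332 in control. The leading STAG2 transcript, ENST00000371157.7, has the coding sequence of ENST00000371144.7. It was at 4825, 3950 and 5023 counts in the deeper control libraries and 4399, 3843 and 4000 in siDDX5 libraries. Scaled for depth, it was higher in every siDDX5 library, at 188, 183 and 207 CPM in control and 217, 208 and 220 CPM in siDDX5 libraries (log2 fold change 0.20, SE 0.10, edgeR unadjusted p = 0.0822, adjusted p = 0.753). NIPBL was carried by ENST00000448238.2 and ENST00000282516.13, which held 62.0% and 19.3% of its TPM in control and 54.5% and 17.8% in siDDX5 cells. WAPL, PDS5A and PDS5B were led by ENST00000618527.4, ENST00000303538.13 and ENST00000315596.15, with 81.5%, 83.1% and 40.7% of the TPM in control and 82.6%, 83.5% and 45.3% in siDDX5 cells. PDS5B also had a short coding transcript, ENST00000447833.1, with 32.2% and 31.4%, and a nonsense-mediated decay transcript, ENST00000450460.5, with 18.1% and 16.8%. The transcripts with the smallest usage p of these 3 genes had overlapping groups. The retained-intron transcript ENST00000484070.1 of WAPL was at 47.3, 69.0 and 52.6 counts in control and 60.6, 21.6 and 40.6 in siDDX5 libraries. The nonsense-mediated decay transcript ENST00000507020.1 of PDS5A was at 24.2, 75.5 and 24.3 counts in control and 30.7, 23.9 and 25.3 in siDDX5 libraries. The retained-intron transcript ENST00000498550.5 of PDS5B was at 65.0, 98.6 and 32.3 counts in control and 44.9, 28.4 and 10.7 in siDDX5 libraries.

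The levels of the 10 genes were compared on the TPM scale, which divides by transcript length. In control cells SMC3 was highest at 229 ± 11.6 TPM (SD, n = 3 for each), followed by SMC1A at 158 ± 12.7, RAD21 at 157 ± 3.96, STAG2 at 149 ± 10.4, PDS5A at 114 ± 21.5, PDS5B at 62.0 ± 3.86, NIPBL at 55.9 ± 7.35, CTCF at 38.6 ± 1.19, WAPL at 29.4 ± 4.71 and STAG1 at 28.0 ± 2.88 TPM. The ranges of SMC1A and RAD21, of RAD21 and STAG2, of PDS5B and NIPBL and of WAPL and STAG1 overlapped, so the order within these neighbours is not fixed. CTCF lay above both WAPL and STAG1 in every control library. In siDDX5 cells CTCF was at 27.7 ± 2.67 TPM (SD, n = 3), the lowest mean of the 10 genes, with WAPL at 31.3 ± 5.21 and STAG1 at 33.2 ± 5.22 TPM, and the range of CTCF then overlapped both. With CPM per 1000 bases of the leading transcript in place of summed TPM, a scale added after the data were seen, RAD21 came before SMC1A in control cells, PDS5A before STAG2, and NIPBL and CTCF before PDS5B. In siDDX5 cells WAPL, not CTCF, had the lowest mean on that scale. WAPL was at 14.9 ± 1.28, CTCF at 15.9 ± 0.310 and STAG1 at 16.0 ± 1.61 CPM per 1000 bases (SD, n = 3 for each).

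Ratios within a library need no scaling between libraries, and 5 were compared. With 3 libraries a group, the exact two-sided permutation test cannot go below p = 0.1. The ratio of STAG2 to STAG1 in TPM was 5.00, 4.74 and 6.38 in control and 4.16, 3.58 and 4.27 in siDDX5 libraries, lower in every siDDX5 library. The difference was -0.42 on the log2 scale, with p = 0.1 in the exact test and 0.167 after adjustment over the 5 ratios. The ratio of SMC1A to SMC3, which share the ring in equal numbers, was 0.704, 0.622 and 0.743 in control and 0.473, 0.381 and 0.461 in siDDX5 libraries (log2 difference -0.66, exact p = 0.1, adjusted p = 0.167). With summed counts in place of TPM this difference was -0.42. The ratio of the loader NIPBL to the release factor WAPL was 1.99, 1.85 and 1.88 in control and 1.73, 1.74 and 1.61 in siDDX5 libraries (log2 difference -0.17, exact p = 0.1, adjusted p = 0.167), and with summed counts the difference was -0.30. The groups of these 3 ratios did not overlap. PDS5A to PDS5B and RAD21 to SMC3 overlapped, with log2 differences of -0.08 (exact p = 0.7) and -0.07 (exact p = 0.5). Between same-numbered libraries both were lower in siDDX5 cells in 3 of 3 pairs, PDS5A to PDS5B going from 1.61, 2.08 and 1.82 to 1.53, 2.08 and 1.62 and RAD21 to SMC3 from 0.729, 0.671 and 0.658 to 0.674, 0.668 and 0.619. The paired exact sign-flip test gave p = 0.25 for each, the smallest that 3 pairs allow. The sign of PDS5A to PDS5B turned without control replicate 2 or siDDX5 replicate 1, and that of RAD21 to SMC3 with summed counts.

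**Figure D4:**
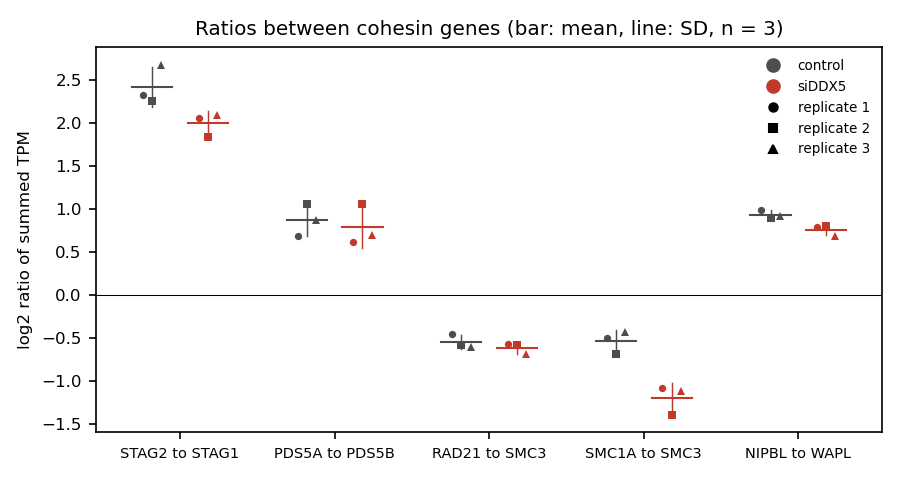
Ratio of summed TPM (log2) for 5 pairs of cohesin genes in each library, with a bar for the mean and a line for the SD of 3 libraries. The ratios STAG2 to STAG1, SMC1A to SMC3 and NIPBL to WAPL are lower in all siDDX5 libraries, and the other ratios overlap.

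Transcript usage was tested in 9 of the 10 genes, since SMC3 had no pair of transcripts that passed the filter. STAG1 alone was called (edgeR diffSpliceDGE, Simes adjusted p = 0.0228), 1 of 9 against 1.59% of 10704 genes. With the replicate block the adjusted p of STAG1 was 0.0528, so none of the 9 passed, against 1.21% of all genes. The call was also lost without control replicate 1 (adjusted p = 0.0872), control replicate 3 (0.0693), siDDX5 replicate 2 (0.183) or siDDX5 replicate 3 (0.176), and at a mean of at least 50 counts. Without siDDX5 replicate 1 CTCF and STAG2 passed beside STAG1, and without siDDX5 replicate 3 RAD21 passed in its place. Of 58 transcripts of the 10 genes, 0 passed the adjusted threshold of the edgeR test, as did 0% of 61666 transcripts in all, and 13 had an unadjusted p under 0.05, 5 higher and 8 lower in siDDX5 cells, against 7.08% of all transcripts.

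The transcript with the smallest p in the STAG1 usage test was ENST00000629124.2, at 89.8, 51.0 and 35.3 estimated counts in control and 0 in all 3 siDDX5 libraries. A count of 0 allows up to 3 counts, or 0.148 to 0.165 CPM in these libraries, and covers counting error only. The transcript carries an exon of 125 bases early in the gene, which is not a multiple of 3, and its annotated coding sequence of 483 bases ends 61 bases after that exon, where that of the leading STAG1 transcript runs to 3774 bases. Taken over all 3 transcripts with this exon, it was included at 10.7%, 9.94% and 6.84% of the TPM of the transcripts that span the site in control and at 5.03%, 5.50% and 4.73% in siDDX5 libraries. The groups did not overlap, but with this sum the exon was still present in every siDDX5 library. The other carriers of the exon, ENST00000483235.5 and ENST00000487065.5, had overlapping groups and means that were not lower in siDDX5 libraries. These means were 2.48 and 0.739 CPM in control and 3.16 and 0.764 CPM in siDDX5 libraries.

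STAG1 and STAG2 each have a further alternative exon, of 111 bases or 37 codons, 217 and 226 bases before the end of the coding sequence in the transcripts from which the exons were read. In STAG1 it was included at 97.9%, 95.9% and 95.1% in control and 92.5%, 93.9% and 92.5% in siDDX5 libraries. In STAG2 it was included at 23.2%, 23.4% and 25.0% in control and 18.9%, 21.6% and 18.7% in siDDX5 libraries. The paralogs thus differed widely in how often the exon was used, and in both every siDDX5 library was below every control library, by -3.31 and -4.14 percentage points in the mean. The exact two-sided permutation test gave p = 0.1, its smallest value, for each. These exons were singled out after their values were seen, among 33 alternative exons and splice sites in 8 of the genes, and the smallest adjusted p over the 33 was 0.471 in that exact test. Of the 33, 6 had no overlap between groups, against 13% of 33349 alternative exons and sites over all genes. Both 111-base exons and the 125-base exon of STAG1 were lower in siDDX5 libraries. The SMC1A exons of 113 and 189 bases and a 41-base splice site of NIPBL were higher. The NIPBL site had the widest difference of the 33, 18.8 percentage points. Its bases were included at 26.1%, 39.9% and 18.3% in control and 42.3%, 51.9% and 46.6% in siDDX5 libraries. Exons skipped by the same transcripts share their values, as the SMC1A exons of 113 and 189 bases do, and counting each set of values a single time left 5 of 27. ENST00000236698.9, the STAG1 transcript that skips the exon, was at 40.8, 67.9 and 83.6 counts in control and 161, 106 and 114 counts in siDDX5 libraries (log2 fold change 1.32, SE 0.33, edgeR unadjusted p = 0.00596, adjusted p = 0.525). ENST00000371145.7, a STAG2 transcript with the exon, was at 924, 765 and 968 counts in control and 557, 460 and 475 counts in siDDX5 libraries (log2 fold change -0.47, SE 0.12, edgeR unadjusted p = 0.00702, adjusted p = 0.54). The other STAG2 transcript with the exon, ENST00000218089.13, had overlapping groups. It was at 17.9, 19.7 and 23.4 CPM in control and 22.4, 24.8 and 16.3 CPM in siDDX5 libraries (log2 fold change 0.10, SE 0.21, edgeR unadjusted p = 0.655, adjusted p = 0.954).

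The 3 exons are printed because the transcript with the smallest p in the STAG1 usage call carries the first, and because the other pair of exons, which bear on no usage call, can be compared between the paralogs. They were read from the GRCh38 transcripts of GENCODE release 29, 5′ to 3′ on the transcript strand, at chr3:136586802-136586926 (minus) and chr3:136341441-136341551 (minus) for STAG1 and chrX:124090854-124090964 (plus) for STAG2, with the exon in capitals and 12 coding bases of each neighbouring exon in lower case.
STAG1 125-base exon: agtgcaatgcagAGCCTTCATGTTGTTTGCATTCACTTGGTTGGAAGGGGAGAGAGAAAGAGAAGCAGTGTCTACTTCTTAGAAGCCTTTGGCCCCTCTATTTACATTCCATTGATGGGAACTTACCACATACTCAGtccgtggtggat
STAG1 111-base exon: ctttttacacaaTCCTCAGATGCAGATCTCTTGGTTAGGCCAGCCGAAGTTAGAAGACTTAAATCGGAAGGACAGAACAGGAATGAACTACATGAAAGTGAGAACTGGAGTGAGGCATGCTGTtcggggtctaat
STAG2 111-base exon: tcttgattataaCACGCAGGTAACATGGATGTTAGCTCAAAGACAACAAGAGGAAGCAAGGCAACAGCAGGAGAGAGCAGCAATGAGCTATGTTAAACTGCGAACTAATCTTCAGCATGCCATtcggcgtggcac
Aligned without gaps, the 111-base exons were identical at 52 of 111 bases (46.8%), and both had a GC content of 45.9%.

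**Figure D5:**
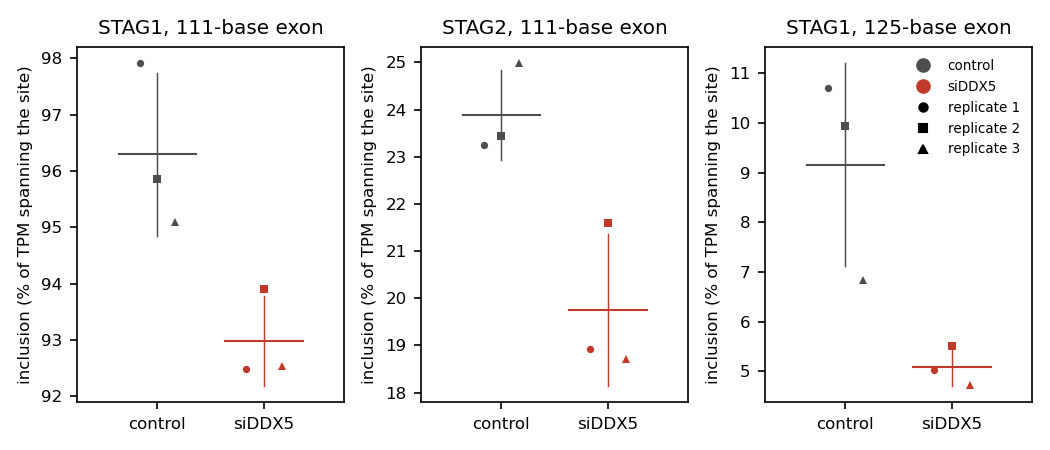
Inclusion of 3 alternative exons, as the percent of the TPM of transcripts spanning the site, in each library (axes do not start at 0), with a bar for the mean and a line for the SD of 3 libraries. In each panel the 3 siDDX5 libraries lie below the 3 control libraries. The exons were picked among those of STAG1 and STAG2 for groups that do not overlap.

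Other genes that act with cohesin and CTCF were read from 3 lists. Of 14 tested genes of the cohesin cycle, 0 passed the edgeR adjusted threshold with or without the block, and 0 passed in DESeq2, with STAG3 the 1 gene of 14 at an unadjusted p under 0.05, against 11.4% of all genes. STAG3, the STAG protein of meiosis, was at 12.7, 14.5 and 13.7 CPM in control and 11.0, 8.33 and 11.2 CPM in siDDX5 libraries (log2 fold change -0.42, SE 0.16, edgeR adjusted p = 0.357). MAU2, the partner of NIPBL, had a log2 fold change of -0.20 (edgeR adjusted p = 0.519), and CDCA5, or sororin, which guards cohesion against WAPL, one of 0.15 (0.645). The enzymes that acetylate SMC3, ESCO1 and ESCO2, had 0.32 (0.506) and -0.05 (0.903), and HDAC8, which removes the mark, had -0.05 (0.913). SMC1B and RAD21L1, the meiotic forms of ring genes, were too low to be tested.

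The condensin and SMC5/6 complexes are relatives of cohesin. Of their 14 genes 0 passed the same edgeR and DESeq2 tests, and 2 of 14 had an unadjusted p under 0.05, against 11.4% of all genes, namely SMC6 and NSMCE4A, the second named here after its value was seen. SMC6 was at 156, 157 and 153 CPM in control and 137, 101 and 113 CPM in siDDX5 libraries (log2 fold change -0.41, SE 0.13, edgeR adjusted p = 0.255, 0.0669 with the block). SMC2, SMC4 and SMC5 had log2 fold changes of -0.04, -0.01 and -0.12. Of 13 partners of CTCF and other insulator proteins 0 passed the edgeR and DESeq2 tests, and 1 of 13 had an unadjusted p under 0.05, against 11.4% of all genes. This was the remodeller CHD8, at 151, 157 and 153 CPM in control and 147, 112 and 117 CPM in siDDX5 libraries (log2 fold change -0.29, SE 0.12, edgeR adjusted p = 0.406). The architectural factors YY1, ZNF143 and MAZ had log2 fold changes of 0.18, 0.21 and 0.08, and the germline paralog CTCFL, at 1.75 to 2.69 CPM, one of 0.08. YY1 and ZNF143 were higher in siDDX5 libraries without overlap in CPM (edgeR adjusted p = 0.509 and 0.549). With CHD8, which was lower, they made 3 of 13 without overlap, against 18% of all genes. The median log2 fold changes of the lists were 0.06, -0.03 and 0.08, in the order given.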

How the data were processed

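Messenger RNA of 6 Rh30 libraries was analysed, 3 control and 3 siDDX5, grouped by their titles. Per the submitters' processing notes, the authors used bcl2fastq 2.20, FastQC 0.11.8, cutadapt 1.11 and kallisto 0.46.0 with GRCh38; the annotation release and strand setting are not given in the sources used here. The deposited estimated counts per transcript are not normalized, and kallisto splits a read that fits several transcripts between them. The deposited TPM values were divided by effective length by the authors and sum to one total in each library.

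Of 188753 transcripts, 169797 were joined to genes of GENCODE release 29 by identifier, 15315 by symbol and 890 by position; 2751 were left out, and 99.59% to 99.63% of counts were kept. All 96 transcripts of the 10 genes were joined by identifier. Summed counts were rounded, filtered with filterByExpr, TMM-scaled and tested with edgeR 4.0.16 (R 4.3.3), with group as the only term, over all genes, at a Benjamini-Hochberg adjusted p under 0.05. Usage was tested with diffSpliceDGE. A standard error leaves out the error of that split, for which the tables hold no estimate. Inclusion of an exon is the share of TPM on transcripts with it among those with it or with an intron across it.

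The titles share replicate numbers. Deviations from the group means correlated at 0.21, 0.27 and 0.58 over 15223 genes for numbers 1, 2 and 3. The main tests leave out any pairing by number, since the titles do not say that same-numbered libraries share a batch. A block on the number was run as an alternative, and it is given where it changes a call. Alternatives were DESeq2 1.42.0, its size factors in edgeR, 2 filters, length-scaled TPM, limma-trend (limma 3.58.1) with pseudocounts of 0.1 and 1 for genes with a mean of at least 1 TPM, the block and leaving out each library. The steps were tested on simulated counts.

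The 10 genes and the lists were chosen with earlier results of these data known. Named were the 10 genes, DDX5, 15 list genes fixed by name, list genes called in either fit, transcripts with at least 10% of a gene's TPM in either group, the transcript with the smallest usage p of each gene, and the 3 genes most like CTCF. Other names were chosen after their values were seen.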

Additional observations from a re-analysis of the deposited data

How the results depend on the processing

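Of the 10 genes, 0 were called by edgeR and 1, CTCF, by DESeq2's Wald test and with the replicate block (1 each); the other alternatives gave 0, as did leaving out each library. CTCF, SMC1A, STAG1, WAPL and NIPBL kept the sign of their log2 fold change under all 14 alternatives. The number of all genes called was 25, and it became 323 with DESeq2, 136 without a filter, 1 with either limma-trend setting, 2 with length-scaled TPM, 394 with the replicate block, and 0 to 15 when each library was left out. Usage calls numbered 1 among the 10 genes, 0 at a mean of at least 50 counts, 0 with the replicate block and 0 to 3 with a library left out; over all genes they numbered 170, 382 without a filter, 41 at a mean of at least 50 counts, 129 with the replicate block and 216 to 453 with a library left out. The lists and single transcripts stayed at 0 calls under every alternative run. The paired sign-flip test (replicate block) gave an exact p of 0.25 for every ratio and for the 3 exons, the smallest that 3 pairs allow. The cause of these shifts was not tested.

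Log2 values near 0 changed sign as follows. In the limma-trend settings with pseudocounts of 1 and 0.1, RAD21 was at -0.0723 and -0.0727, SMC3 at -0.00403 and -0.00406, PDS5B at -0.0721 and -0.0735, and CDCA5 at -0.00463 and -0.00463. With length-scaled TPM, RAD21 was at -0.0195, PDS5B at -0.015 and HDAC8 at 0.0214. With single libraries left out, the values ranged from -0.0755 to 0.0313 for STAG2, from -0.185 to 0.00468 for PDS5A, from -0.0204 to 0.117 for PDS5B, from -0.126 to 0.0413 for ESCO2, from -0.145 to 0.0517 for HDAC8, from -0.0431 to 0.0344 for SMC4, from -0.0732 to 0.192 for MAZ, from -0.044 to 0.241 for CTCFL, and from -0.218 to 0.0106 for the ratio of PDS5A to PDS5B. The ratio of RAD21 to SMC3 was at 0.00693 with summed counts.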
